A study of Mus musculus with 9 samples.

Results

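The miR-183/96/182 cluster is a group of 3 miRNA hairpins transcribed together, and its members were taken as the 5 mature strands listed as mmu-miR-183-5p, mmu-miR-183-3p, mmu-miR-96-5p, mmu-miR-182-5p and mmu-miR-182-3p, written below without the species prefix. These are 5 of the 1966 mature miRNAs in the deposited table of raw read counts. They were picked by name, with their values against wild type already known, so their levels and fold changes against wild type are given as a description and support nothing beyond it. The sixth strand of the hairpins, miR-96-3p, is given beside them.

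Small RNA was sequenced from the quadriceps of 9 mice, with 1 library per mouse and 3 mice per group, all aged 90 days by the labels. Wild-type mice (WT) were C57BL/6J, Mbnl1+/+ Mbnl2+/+. Mbnl1 knockout mice (Mbnl1KO) were C57BL/6J, Mbnl1{delta}E3/{delta}E3 with Mbnl2+/+. Mbnl2 knockout mice (Mbnl2KO) were of the strain B6.C-Tg(CMV-cre)1Cgn/J and Mbnl1+/+, and the labels give them Mbnl2{delta}E2/{delta}E2 in replicate 1, Mbnl2{delta}E2/{delta}E3 in replicate 2 and Mbnl2{delta}E2/{delta}E4 in replicate 3. The paper names the first of these as the only Mbnl2 genotype, and the exon number of the second allele rises by 1 with each replicate as in a filled-down spreadsheet column, so whether the mice carried different alleles is uncertain. If they did, each allele pair was 1 mouse and cannot be told apart from that mouse. The strain label of the Mbnl2KO mice, which names a Cre transgene under the CMV promoter, is not shared by the WT mice, while the paper calls the WT mice littermates of the knockouts. By the labels alone, strain and Mbnl2 genotype cannot be told apart here. The MBNL proteins are RNA-binding regulators of alternative splicing, and the comparison asked how loss of each paralog changes the miRNAs of adult muscle. Small RNA libraries hold no mRNA of the targeted genes, so the genotypes were not checked in these data.

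Total counts ranged from 4761271 to 6277018 reads per library. The muscle miRNA miR-1a-3p took between 61.4% and 73.7% of them, the muscle miRNAs miR-133a-3p and miR-206-3p were detected too, and the remaining reads covered all other miRNAs. Of the 1966 entries, 1057 were listed at 0 in all 9 libraries. These include miR-486a-5p and miR-126a-3p, miRNAs known as abundant in muscle and in vessels, so an entry at 0 is described only as listed at 0.

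The cluster is known best from sensory organs. Its 3 guide strands are abundant in hair cells of the inner ear, in photoreceptors and in sensory neurons, and miR-182 is also expressed in skeletal muscle, where it is known to repress the transcription factor Foxo3, a driver of muscle atrophy genes. A miRNA guides the silencing complex to mRNAs mainly through its seed, the bases 2 to 8 from its 5′ end, and for each hairpin usually 1 arm, here the 5p arm, is kept as the guide while the other is degraded. Each read stands for 1 mature strand, so counts were not divided by length.

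On GRCm39 the 3 hairpins lie on the minus strand of chromosome 6, each found by an exact match of the RefSeq hairpin sequence at 1 position of that chromosome. Mir183 comes first in the direction of transcription, at chr6:30169667-30169736. Mir96 follows after a gap of 116 bases, at chr6:30169445-30169550, and Mir182 after a further 3453 bases, at chr6:30165917-30165991. All 3 are inside the long noncoding RNA gene Mirc35hg (chr6:30158627-30178453, minus strand) in the GENCODE annotation. Of its 16 annotated transcripts, 1 spans each hairpin. Mir182 and Mir96 overlap no exon of it, and Mir183 overlaps an exon of 1 transcript by 5 bases. Another long noncoding RNA gene, Rncr4, starts 3155 bases from Mir183 on the plus strand. The flanking protein-coding genes are Nrf1, 12454 bases away, and Ube2h, 41551 bases away on the other side.

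The hairpins are printed because the comparison turns on strands cut from 1 shared transcript. They are given 5′ to 3′ from RefSeq (table of build GRCm38.p6), with the 5p and then the 3p mature strand in capitals.
Mir183: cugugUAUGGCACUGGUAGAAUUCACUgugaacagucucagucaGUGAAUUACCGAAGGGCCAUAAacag
Mir96: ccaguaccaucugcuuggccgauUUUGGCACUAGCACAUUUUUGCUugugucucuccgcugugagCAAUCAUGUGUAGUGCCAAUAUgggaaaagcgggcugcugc
Mir182: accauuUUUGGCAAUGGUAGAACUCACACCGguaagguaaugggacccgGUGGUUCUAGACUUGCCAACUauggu

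The 3 guide strands show how alike the members are, and miR-1271-5p is added as the strand outside the cluster with the same seed as miR-96-5p. The seed is in capitals, and all 4 sequences were matched by name in the RefSeq table.
miR-183-5p: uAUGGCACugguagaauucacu
miR-96-5p: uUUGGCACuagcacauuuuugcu
miR-182-5p: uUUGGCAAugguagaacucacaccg
miR-1271-5p: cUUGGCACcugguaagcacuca

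Counted from the 5′ end without gaps, miR-182-5p and miR-183-5p are identical at 18 of 22 positions and differ by U2A, A8C, C17U and A22U, with the base of miR-182-5p first. U2A and A8C are both in the seed, so the pair most alike over its length shares 5 of 7 seed bases. miR-182-5p and miR-96-5p share 6 of 7 seed bases, the exception being A8C, but are identical at 12 of 23 positions in all. Among the 1679 mature miRNAs of the table, bases 2 to 7 of miR-182-5p and miR-96-5p are found in 1 further miRNA, miR-1271-5p, and those of miR-183-5p in no other. miR-1271-5p was listed at 0 in all 9 libraries.

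miR-182-5p was the most abundant member in every library. It had 52, 59 and 47 reads in WT, 126, 157 and 117 reads in Mbnl1KO and 111, 222 and 78 reads in Mbnl2KO, for replicates 1 to 3. After scaling to a common library size with TMM over the 9 libraries, these are normalized counts of 53.2, 57.4 and 58.9 in WT, 97.6, 165 and 102 in Mbnl1KO and 114, 211 and 99.6 in Mbnl2KO. All 6 knockout libraries were above all 3 WT libraries, the WT libraries were close to each other, and replicate 2 was the highest in both knockouts.

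The mean of miR-182-5p was 56.5 ± 3.0 normalized counts in WT (SD, n = 3 mice). It was 122 ± 37.9 for Mbnl1KO (SD, n = 3) and reached 141 ± 60.5 for Mbnl2KO (SD, n = 3). WT is the lowest of this order, and the knockouts, which follow it, overlapped. The highest Mbnl2KO library had 2.12 times the normalized count of the lowest, the highest Mbnl1KO library 1.70 times, and the highest WT library 1.11 times. In WT, miR-182-5p was between the 188th and 191st most abundant miRNA, against the 145th to 171st in Mbnl1KO and the 125th to 153rd in Mbnl2KO.

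miR-183-5p, the strand encoded first in the cluster, had 33, 32 and 30 reads in WT, 49, 41 and 33 in Mbnl1KO and 57, 117 and 39 in Mbnl2KO. Its normalized counts were 33.7, 31.1 and 37.6 in WT, 38.0, 43.2 and 28.8 in Mbnl1KO and 58.5, 111 and 49.8 in Mbnl2KO. Of the Mbnl1KO libraries, replicates 1 and 2 were above the WT range and replicate 3 was below it, while every Mbnl2KO library was above all the others. The mean was 34.2 ± 3.2 in WT (SD, n = 3) and 36.7 ± 7.3 for Mbnl1KO (SD, n = 3), which did not differ beyond their spread. For Mbnl2KO it was 73.1 ± 33.2 (SD, n = 3). Mbnl2KO replicate 2 was again the highest, with 2.23 times the normalized count of the lowest Mbnl2KO library.

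miR-96-5p, whose hairpin is the middle one and whose seed mutations are known to cause hearing loss, was near the limit of detection. It had 1, 2 and 2 reads in WT, 3, 3 and 9 in Mbnl1KO and 3, 1 and 2 in Mbnl2KO. The highest library was Mbnl1KO replicate 3, and the groups overlapped once scaled, with WT libraries between 1.02 and 2.51 normalized counts, Mbnl1KO libraries between 2.32 and 7.86 and Mbnl2KO libraries between 0.95 and 3.08. A mean below 10 normalized counts left it out of the fits reported below. In fits without that filter its log2 fold change was 1.19 (standard error 0.917) in Mbnl1KO and 0.24 (standard error 1.18) in Mbnl2KO against WT, neither called, so a difference was not detectable at this depth. It made up 26 reads in all 9 libraries, against 969 of miR-182-5p and 431 of miR-183-5p.

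The 3p strands were almost absent from the counts. miR-183-3p had 1 read in WT replicate 3 and 2 reads in Mbnl1KO replicate 3, so that the 3p arm took 0.691% of the reads of its hairpin (95% Wilson interval 0.235% to 2.01%). miR-96-3p had 1 read, in Mbnl2KO replicate 1, which is 3.70% of the reads of its hairpin (95% Wilson interval 0.657% to 18.3%). miR-182-3p was listed at 0 in all 9 libraries, beside 969 reads of miR-182-5p, and a true count of 0 would allow a 3p share of up to 0.310% (3 reads). Copies of 1 molecule made by PCR were not told apart, so these intervals and limits cover counting error only.

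**Figure D1:**
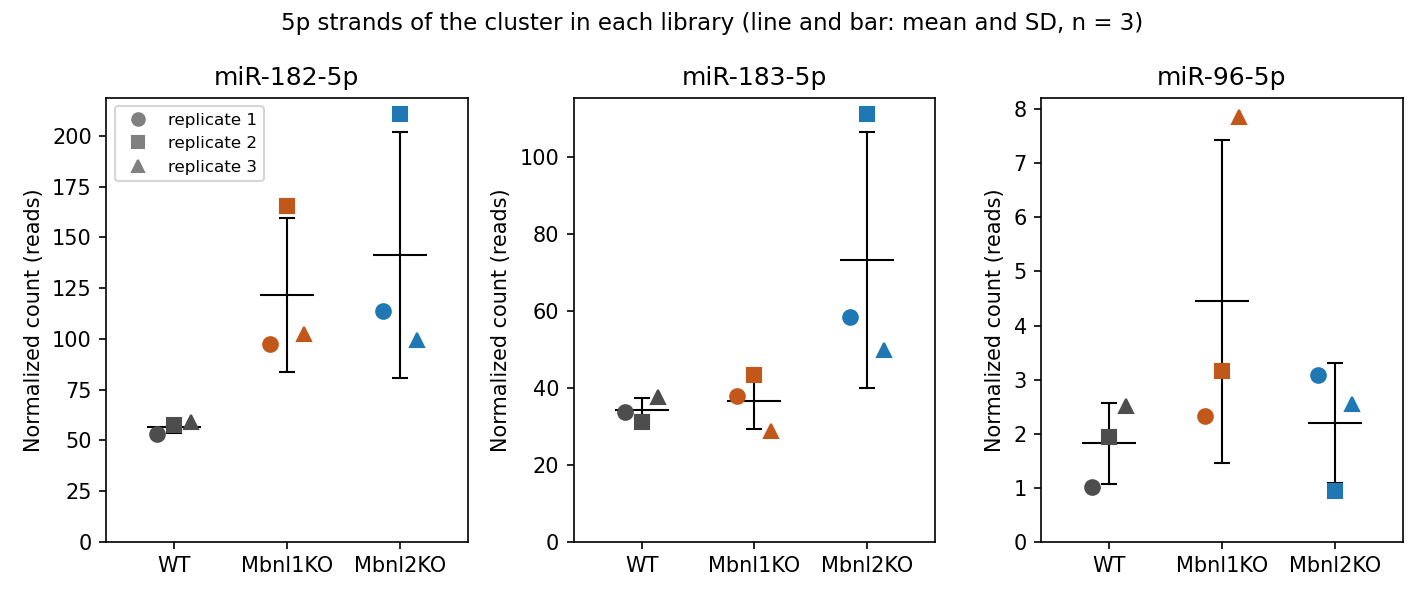
Normalized counts (reads, TMM over 9 libraries) of miR-182-5p, miR-183-5p and miR-96-5p in each library by group, with the replicate number as the symbol and the mean and SD of 3 mice as line and bar, each panel on its own linear axis from 0. miR-182-5p is above the WT libraries in all 6 knockout libraries, and miR-183-5p in the 3 Mbnl2KO libraries and in Mbnl1KO replicates 1 and 2. Replicate 2 of Mbnl2KO is the highest for both.

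The groups were compared with the quasi-likelihood test of edgeR, fitted on all miRNAs with a mean above 10 normalized counts and adjusted by the Benjamini-Hochberg method over all of them, with a threshold of 0.05. Of the 5 members, 4 had a read in each comparison and 2, miR-182-5p and miR-183-5p, passed the filter.

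In Mbnl1KO against WT, miR-182-5p was upregulated and miR-183-5p was not called. The log2 fold change of miR-182-5p was 1.03 (standard error 0.253), a 2.05-fold higher level with a 95% interval of 1.45 to 2.89. That of miR-183-5p was 0.03 (standard error 0.322), with an interval of −0.60 to 0.67 that still holds changes of about 1.5-fold in both directions. Thus 1 of the 2 tested members was called, higher in Mbnl1KO, where 18.8% of the 319 tested miRNAs were called in that direction and 33.5% in either. The groups did not overlap for 1 of the 2 members, with the higher values in Mbnl1KO, which held for 24.5% of all tested miRNAs (42.3% in either direction). miR-182-5p was the 45th of the 319 by size of change.

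In Mbnl2KO against WT, both tested members were upregulated. The log2 fold change was 1.32 (standard error 0.256) for miR-182-5p, a 2.49-fold higher level with a 95% interval of 1.72 to 3.61. It was 1.1 (standard error 0.296) for miR-183-5p, a 2.14-fold higher level with an interval of 1.39 to 3.29. In this comparison 5.80% of the 293 tested miRNAs were called in either direction and 3.41% as higher in Mbnl2KO. Further, the groups did not overlap for 24.9%, and 14.0% did so with the higher values in Mbnl2KO. Both members are among these. By size of change, miR-182-5p was the 4th and miR-183-5p the 7th of 293. Both comparisons share the WT libraries.

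The call of miR-183-5p in Mbnl2KO changed with single libraries and settings. With each of the 6 libraries left out in turn it was kept in 2 fits, those without Mbnl2KO replicate 1 or replicate 3, and was lost without any 1 of the others. Without WT replicate 1, 2 or 3 the log2 fold change was 1.12, 1.05 and 1.18, close to that of the full fit, and without Mbnl2KO replicate 2 it was 0.69. It was also lost with DESeq2's Wald test and with library totals in place of TMM, at log2 fold changes of 1.1 and 1.15. miR-182-5p was called in 5 of the 6 fits in Mbnl2KO, the exception being the one without WT replicate 2 (log2 fold change 1.35), and in all 6 fits in Mbnl1KO, where it was 0.74 without Mbnl1KO replicate 2.

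The knockouts were also compared directly. This uses the same 6 knockout libraries, whose values were known when the comparison was made, so it is a description as well and no p is given. miR-183-5p was lower in Mbnl1KO than in Mbnl2KO by a log2 fold change of −1.04 with a standard error of 0.299, past the threshold over 311 miRNAs, and all 3 Mbnl1KO libraries were below all 3 Mbnl2KO libraries. miR-182-5p had a log2 fold change of −0.26 between them, not called, with a 95% interval of −0.90 to 0.37. That interval reaches from a level 0.536 times to a level 1.30 times that of Mbnl2KO, so it does not show equal levels. Among all tested miRNAs 27.3% were called in either direction, 10.6% were called as higher in Mbnl2KO, and the groups did not overlap for 46.0% and, with the higher values in Mbnl2KO, for 19.9%, miR-183-5p among them.

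The difference in miR-183-5p between the knockouts was not called without Mbnl2KO replicate 2 (log2 fold change −0.61) or without Mbnl1KO replicate 3 (−0.92). It was called without any 1 of the other 4 libraries.

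**Figure D2:**
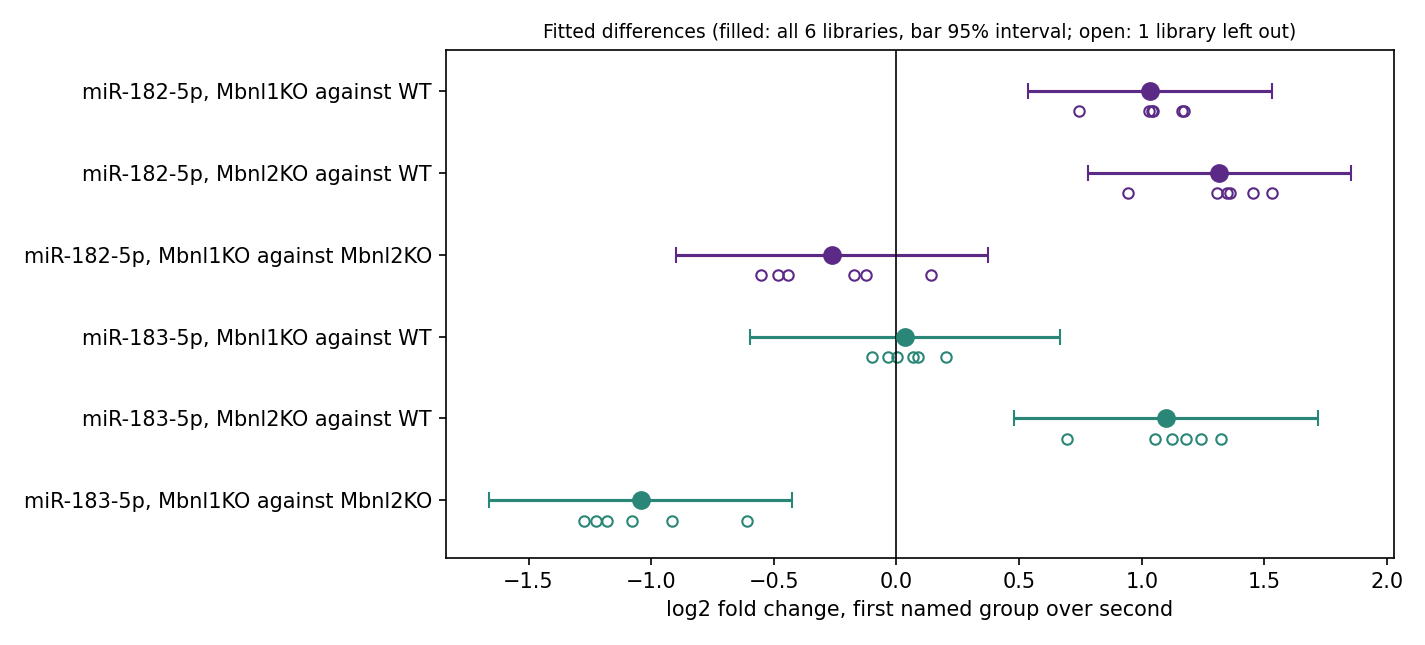
Log2 fold changes of miR-182-5p and miR-183-5p in the 3 comparisons, as first named group over second: filled points are fits on all 6 libraries with the 95% interval as bar, open points are fits with 1 library left out. The intervals of miR-182-5p against WT are above 0 in both knockouts (1.03 and 1.32), that of miR-183-5p spans 0 in Mbnl1KO (0.03), and the direct difference of miR-183-5p is −1.04.

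The relation between the members was then taken within each library, as reads of miR-182-5p per read of miR-183-5p. This ratio needs no scaling of the libraries, but it is not a ratio of molecules, since strands of different sequence enter a library with different efficiency. It was 1.58, 1.84 and 1.57 in WT, 2.57, 3.83 and 3.55 in Mbnl1KO and 1.95, 1.90 and 2.00 in Mbnl2KO, for replicates 1 to 3. Every Mbnl1KO library was above every other library, and the 3 Mbnl2KO libraries were close to each other, although their levels of both strands differed more than 2-fold.

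The mean ratio was 1.66 ± 0.16 in WT (SD, n = 3), 3.32 ± 0.66 for Mbnl1KO (SD, n = 3) and 1.95 ± 0.05 for Mbnl2KO (SD, n = 3). These ratios come from the same counts and are a description too. On the log2 scale Mbnl1KO exceeded WT by 0.98 and Mbnl2KO by 0.75, and Mbnl2KO exceeded WT by 0.23. Each of the 3 pairs of groups had p = 0.10 in a two-sided exact permutation test (adjusted p = 0.10 over the 3 pairs), which is the smallest that 3 against 3 libraries allow, so the test cannot pass a threshold of 0.05. The counting intervals of single libraries were wide, such as 1.52 to 2.37 for Mbnl2KO replicate 2, 1.85 to 3.57 for Mbnl1KO replicate 1 and 1.20 to 2.83 for WT replicate 2 (95%, Wilson), and they overlapped between groups. The interval of each Mbnl1KO library overlapped that of at least 1 WT library, and the WT and Mbnl2KO intervals overlapped too. With 1 library left out, the log2 difference of Mbnl1KO from WT stayed between 0.87 and 1.15, that of Mbnl1KO from Mbnl2KO between 0.63 and 0.92, and that of Mbnl2KO from WT between 0.19 and 0.31.

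As a share of the reads of the 3 guide strands, miR-182-5p took 158 of 258 reads (61.2%) in WT, 400 of 538 (74.3%) in Mbnl1KO and 411 of 630 (65.2%) in Mbnl2KO. miR-183-5p took 36.8%, 22.9% and 33.8%, and miR-96-5p 1.94%, 2.79% and 0.952%. Summed over the 3 libraries of a group, the 95% Wilson intervals of the miR-182-5p share were 55.2% to 67.0%, 70.5% to 77.9% and 61.4% to 68.9%, which cover counting error only. The share of miR-182-5p was thus highest in Mbnl1KO, and the intervals of WT and Mbnl2KO overlapped.

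**Figure D3:**
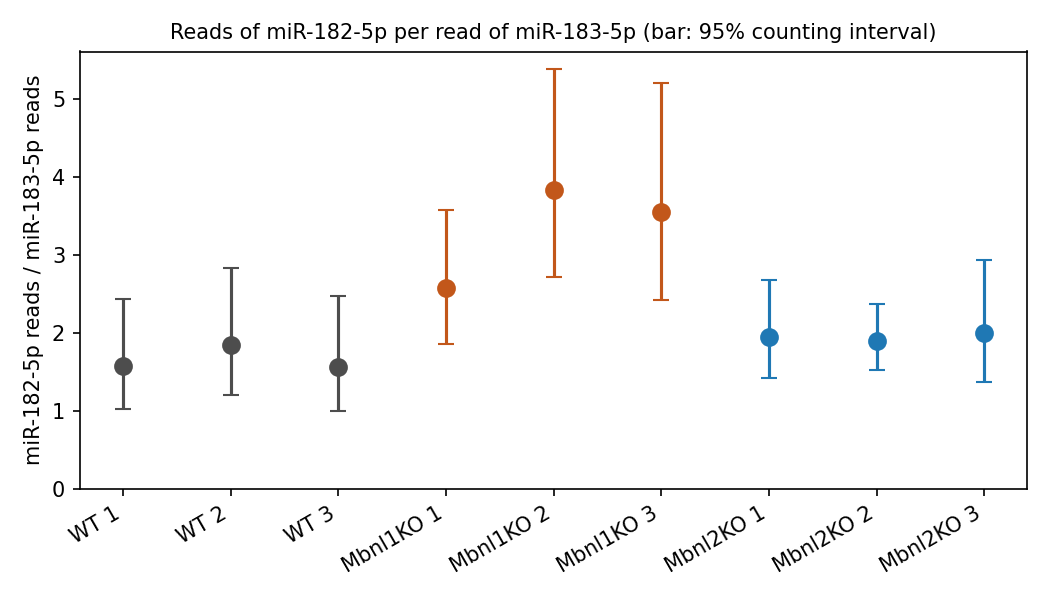
Reads of miR-182-5p per read of miR-183-5p in each of the 9 libraries, on a linear axis from 0, with 95% counting intervals (Wilson) as bars. The 3 Mbnl1KO libraries, at 2.57 to 3.83, are above the WT (1.57 to 1.84) and Mbnl2KO (1.90 to 2.00) libraries.

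Across the 9 libraries, log2 values of miR-182-5p and miR-183-5p had a Pearson r of 0.739. Over the 6 libraries without Mbnl1KO it was 0.986. Both values are a description over few libraries that fall into groups and share their scaling.

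**Figure D4:**
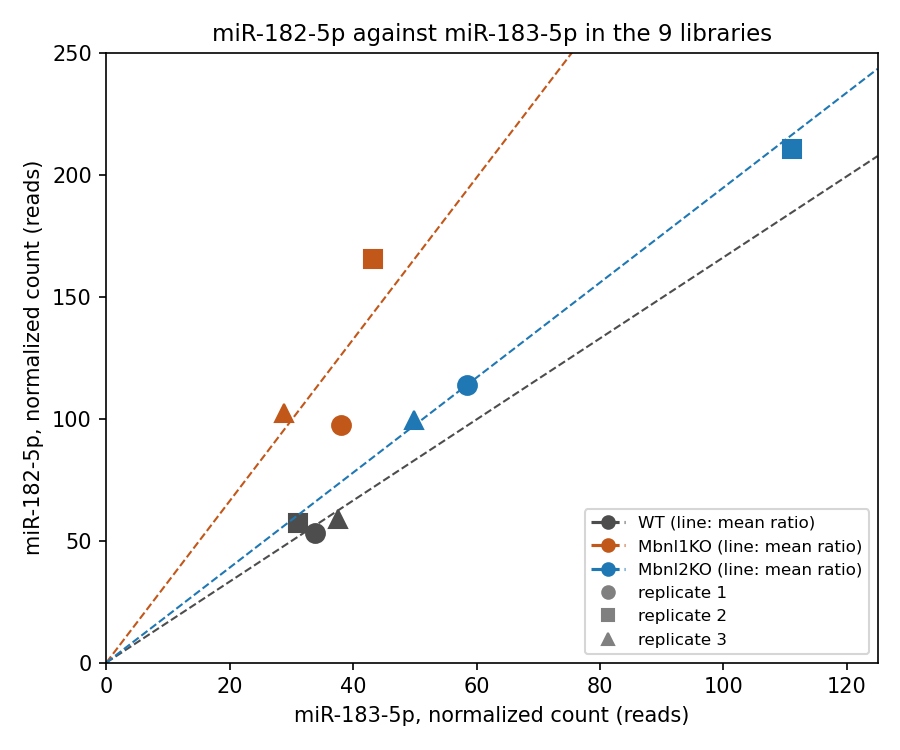
Normalized counts (reads) of miR-182-5p against miR-183-5p, 1 symbol per library (the shape is the replicate number), with dashed lines through 0 at the mean ratio of each group (1.66, 3.32 and 1.95). The Mbnl2KO libraries spread along their line up to replicate 2 (111 and 211), and the Mbnl1KO libraries have miR-183-5p at 28.8 to 43.2 with higher miR-182-5p than WT.

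Among 308 other miRNAs with a mean above 10 normalized counts, those most like miR-182-5p over the 9 libraries, by Pearson r of log2(CPM + 1), were miR-148a-3p (r = 0.909), miR-140-5p (0.864), miR-140-3p (0.780), miR-148b-3p (0.769) and miR-10b-5p (0.762). Those most like miR-183-5p were miR-221-5p (0.929), miR-140-3p (0.925), miR-335-3p (0.906), miR-16-1-3p (0.853) and miR-222-3p (0.794). The lists share 1 miRNA, miR-140-3p, which is 1 of 5 in each. miR-148a-3p had 2842 ± 241 normalized counts in WT, 3959 ± 137 in Mbnl1KO and 4864 ± 844 in Mbnl2KO (SD, n = 3 each). miR-140-3p, a miRNA best known from cartilage, had 1233 ± 148, 1347 ± 300 and 2392 ± 1371 (SD, n = 3 each). In Mbnl2KO replicate 2 it reached 3965, which was the highest of the 9 libraries. The same library was the highest for every miRNA listed as most like miR-183-5p, and for miR-148a-3p. For miR-140-5p and miR-148b-3p the highest was Mbnl1KO replicate 2, and for miR-10b-5p it was Mbnl2KO replicate 1. These similarities share scaling and library with the members and are given without a test.

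Since miR-182 is known as a repressor of FOXO factors, 9 other miRNAs known to target Foxo1 or Foxo3 were followed. The list was chosen with earlier results of these data known, so its counts and medians are a description and no test of the list. In Mbnl1KO against WT 6 of the 9 were tested, 4 rose and 1 fell by the same edgeR test. Among all tested miRNAs 33.5% were called and 18.8% were called as higher. The log2 fold change was 1.61 for miR-27a-3p, 0.72 for miR-27b-3p, 0.72 for miR-132-3p, 0.86 for miR-155-5p and −0.87 for miR-223-3p, a miRNA of myeloid cells. Their median was 0.72, against −0.01 over all tested miRNAs. In Mbnl2KO against WT 5 were tested and 0 were called, with a median of 0.02 beside 0.01 over all tested. The largest change among these was that of miR-135a-5p, with a log2 fold change of −1.47, not called. It had 17.5 to 40.1 normalized counts in WT libraries and 3.83 to 17.4 in Mbnl2KO libraries. miR-27a-3p, with a mean of 6.23 normalized counts in WT and 20.8 in Mbnl1KO, passed the filter through its Mbnl1KO level. Without it, 3 of 5 rose and 1 fell, with a median of 0.72. The calls were the same with both other scalings. Leaving out 1 library gave 3 or 4 that rose and 1 that fell in Mbnl1KO, and 0 calls in Mbnl2KO except for miR-135a-5p, which fell without Mbnl2KO replicate 1. Both miR-486 entries of this list, known to target Foxo1, were listed at 0, and miR-212-3p did not pass the filter.

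Of 5 skeletal muscle miRNAs 4 were tested, beside the same 33.5% and 5.80% of all miRNAs called. miR-206-3p, known from regenerating fibres, rose in both knockouts, with a log2 fold change of 1.93 in Mbnl1KO and 0.89 in Mbnl2KO, and was called with both other scalings and without each library. miR-1a-3p fell in Mbnl1KO (−0.40), a call lost with library totals and without each library except Mbnl1KO replicate 2, where miR-499-5p was called lower as well.

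Bulk muscle also holds nerve, skin, blood and connective tissue, and in such samples fewer cells of a type and less RNA per cell cannot be told apart. Of 11 miRNAs of neurons and glia, 5 were listed at 0 in all libraries and 8 had at most 3 reads in each library, among them the neuronal miR-124-3p and miR-9-5p. The summed list, which is nearly all miR-128-3p, lay between 2780 and 3349 normalized counts for WT, between 3494 and 3949 for Mbnl1KO and between 2417 and 3236 for Mbnl2KO. Every Mbnl1KO library was above every WT library, which held for 24.5% of all tested miRNAs. miR-128-3p itself was not called in Mbnl1KO (log2 fold change 0.22). miR-218-5p, a motor neuron miRNA that other tissues also express, was the only one of the 3 tested that was called in Mbnl1KO (log2 fold change 0.85), and 0 of 3 were called in Mbnl2KO, beside 33.5% and 5.80% of all tested miRNAs. Its call was lost without WT replicate 1, WT replicate 2 or Mbnl1KO replicate 3, and with library totals miR-128-3p was called higher as well.

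Epithelial miRNAs, including the miR-200 family, had at most 13 reads in a library and none of the 8 passed the filter. miR-203-3p, a skin miRNA, and miR-141-3p were listed at 0 in all libraries, so the list covers such cells in part. Their sum lay between 15.6 and 33.8 normalized counts for WT, 16.9 and 27.1 for Mbnl1KO and 16.4 and 17.1 for Mbnl2KO. The sum of 8 immune and blood cell miRNAs lay between 2721 and 3185 for WT, 2802 and 3450 for Mbnl1KO and 2970 and 3204 for Mbnl2KO, with 1 of 6 tested higher and 3 lower in Mbnl1KO and 0 of 6 called in Mbnl2KO, beside the 33.5% and 5.80% of all tested miRNAs. The 3 lower calls became 1 with library totals, without WT replicate 1 or without Mbnl1KO replicate 3, and 2 without WT replicate 2, WT replicate 3 or Mbnl1KO replicate 1, while miR-150-5p was called higher in Mbnl2KO without replicate 3. For 5 fibroblast and vessel wall miRNAs, of which miR-126a-3p was listed at 0, the sum lay between 32794 and 35293 for WT, 31251 and 46028 for Mbnl1KO and 41444 and 46692 for Mbnl2KO. Every Mbnl2KO library was above every WT library, which held for 14.0% of all tested miRNAs. Most of this sum is miR-143-3p, with means of 22316 in WT and 31117 in Mbnl2KO. In Mbnl2KO the log2 fold change was 0.04 for miR-145a-5p, 0.03 for miR-199a-3p and −0.12 for miR-214-3p, none of them called. Of 4 tested in this last list, 1 was called in each knockout, beside 33.5% of all tested miRNAs in Mbnl1KO and 5.80% in Mbnl2KO. miR-143-3p rose in Mbnl2KO (log2 fold change 0.47) and miR-199a-3p fell in Mbnl1KO (−0.43). The first call was lost with library totals and without WT replicate 2, WT replicate 3 or Mbnl2KO replicate 3. The second was lost without WT replicate 1 or Mbnl1KO replicate 3 and with library totals, where miR-143-3p and miR-145a-5p were called higher in Mbnl1KO instead, and miR-143-3p was also called higher there without Mbnl1KO replicate 1. The part of such cells in the levels of the cluster was not tested.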

How the data were processed

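The authors deposited raw counts, the reads of each mature miRNA in each of 9 libraries, without normalization. The paper describes libraries made with a NEXTflex kit and counting of reads aligned without mismatches to miRBase precursors, and whether this made the deposited table is not stated. Counting of that kind leaves out reads with a changed base. The paper's supplement gives a mean count for miR-203-3p, which the deposited table lists at 0, so the counts behind the supplement differ from those used here. Reads were not realigned.

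The groups were compared in pairs, each pair in a fit of its own, by the robust quasi-likelihood test of edgeR with TMM and Benjamini-Hochberg adjustment over miRNAs with a mean normalized count above 10. The study itself used DESeq2. Normalized counts printed per library were scaled by TMM over all 9 libraries, while fold changes come from the pairwise fits. The fitting code was tested on simulated data. The members and lists were chosen with earlier results of these data known. The named miRNAs were the 6 strands, the 5 most alike to miR-182-5p and to miR-183-5p, and called members of the lists. Others, such as miR-1271-5p and entries listed at 0, were named after their values were seen. Checks of the lists with other scalings and without each library were added after seeing the data. The replicate libraries are separate mice, and none was left out. Alternatives were DESeq2's size factors, library totals, DESeq2's Wald test, no filter, a mean above 100, a single fit of all 9 libraries, a replicate block, leaving out each library, a threshold of 0.01, and 1 count added to the ratio. Software was edgeR 4.0.16 and DESeq2 1.42.0 in R 4.3.3, with SciPy 1.17.1 and matplotlib 3.10.9 in Python 3.11.15.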

Additional observations from a re-analysis of the deposited data

Results flagged for a closer look

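The level of miR-183-5p against WT differed between the knockouts. In the direct contrast of Mbnl1KO and Mbnl2KO the log2 fold change was −1.04, past the threshold of 0.05, with 3 of 3 Mbnl1KO libraries below all Mbnl2KO libraries. The contrast was fitted on the libraries in which the difference was seen, so it is no independent test of it. It was not called without Mbnl2KO replicate 2 (−0.61) or without Mbnl1KO replicate 3 (−0.92). Groups of 3 libraries were not tested for outliers.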

How the results depend on the processing

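The higher miR-182-5p in Mbnl1KO kept its direction and its call in all 13 alternatives, with a log2 fold change of 0.74 to 1.17 when a library was left out and up to 1.32 with library totals. In Mbnl2KO it was 0.94 to 1.53 with a library left out, and not called without WT replicate 2. miR-183-5p in Mbnl2KO was 0.69 to 1.32 with a library left out, 1.15 with library totals and 1.1 with DESeq2's Wald test, not called in the latter 2 nor at the threshold of 0.01 (1.1). In Mbnl1KO its sign turned with DESeq2's size factors (−0.00031), and it was −0.10 to 0.20 with a library left out. Between the knockouts miR-183-5p was −1.28 to −0.61 and miR-182-5p −0.55 to 0.14 with a library left out, and miR-183-5p (−1.04) was not called at 0.01. The cause of these changes was not tested. With the replicate block the values were 1.01 and 0.03 in Mbnl1KO, 1.27 and 1.05 in Mbnl2KO and −0.22 and −0.97 between the knockouts, for miR-182-5p and miR-183-5p, with no call changed. Libraries of equal number correlated between −0.15 and 0.10 in their deviations from group means. With so few libraries per group, this cannot show whether the numbers pair the mice. The difference in log2 ratio kept its direction in every alternative.

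The number of called miRNAs moved from 107 to 70 with a mean above 100 in Mbnl1KO against WT. In Mbnl2KO against WT it moved from 17 to 7 with library totals, 10 with a mean above 100, 6 at 0.01, and 4 to 26 with a library left out. Between the knockouts it moved from 85 to 44 at 0.01. Over all tested miRNAs, library totals moved the median log2 fold change from −0.01 to 0.30 in Mbnl1KO against WT and from 0.09 to 0.36 between the knockouts. With a mean above 100, the members had no value against WT, nor miR-183-5p between the knockouts. Depth limits miR-96-5p and the 3p strands, which had at most 9 reads in a library.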
